A study of Mus musculus with 7 samples.

Results

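The 10 genes of the secreted lipoproteins were followed in livers of mice with diet-induced steatohepatitis: the apolipoproteins Apoa1, Apoa2, Apoa4, Apoa5, Apob, Apoc1, Apoc2, Apoc3 and Apom, and the lipid transfer protein Mttp. They were taken by gene name from a table of 27810 genes, and all 10 were found once. The 7 liver libraries came from male C57BL/6j mice of wild-type genotype (WT) that had been given, from 5 weeks of age, a WD diet with 40% fat, 20% fructose and 2% cholesterol, a model the labels call WD-induced NASH. After 32 weeks on the diet every mouse received 1 tail-vein injection, and livers were taken after 40 weeks. In 3 libraries (MSC replicates 0, 1 and 2) the injection held mesenchymal stromal cells from human umbilical cord (hUC-MSCs). In 1 library (replicate 6) it held vehicle and the label adds the word Cancer, without saying what that refers to in the sampled tissue. In 3 libraries (vehicle replicates 1, 3 and 4) it held vehicle, given in the labels as PBS. No liver without the WD diet was sampled, so every group carries the diet. The labels do not say that each library is a separate animal, so the p-values speak only for spread among libraries, which may be technical.

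Hepatocytes export triglyceride and cholesterol in very low density lipoprotein, a particle built around a single molecule of apolipoprotein B. Mttp, in the endoplasmic reticulum, loads lipid onto the growing apolipoprotein B, and without lipid the protein is degraded. High density lipoprotein is built on apolipoproteins A-I and A-II and carries cholesterol back to the liver. The small apolipoproteins move between both kinds of particle and set how fast lipoprotein lipase releases fatty acids from them: apolipoproteins C-II and A-V promote the reaction, and C-III and C-I restrain it or slow particle uptake.

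Apoa1, Apoc3, Apoa4 and Apoa5 lie within 43.3 kb of chromosome 9 (GRCm38 coordinates of the deposited table): Apoa1 at chr9:46228580-46230466, Apoc3 at chr9:46232933-46235636, Apoa4 at chr9:46240696-46243459 and Apoa5 at chr9:46268633-46271919, all on the plus strand except Apoc3. Apoc2 (chr7:19671579-19677941) and Apoc1 (chr7:19689481-19692660) share a cluster on the minus strand of chromosome 7 with Apoc4 between them. Apob is at chr12:7977648-8016835, Apoa2 at chr1:171225054-171226379, Apom at chr17:35128997-35132050 and Mttp at chr3:138089854-138143388. The stretches upstream of 5 genes are shown, for the following reasons. Of these genes 3 are neighbours (Apoa1, Apoa4 and Apoa5), and whether they differ in control was not tested. Mttp had no overlap between MSC and vehicle libraries. Apoc2, like Apoa1, was highest in the Cancer-labelled library. The stretches are RefSeq promoter windows of GRCm38.p6, written 5′ to 3′ on the strand of the gene. They stop at the RefSeq start or at the start of the gene in the deposited table, whichever comes first. Capitals mark matches, on either strand, to a nuclear receptor half-site (AGGTCA or GGGTCA), an HNF4A site (CAAAGTCCA) or a TATA box (TATAAA). Their coordinates are chr9:46228380-46228579 (+) for Apoa1, chr9:46240594-46240695 (+) for Apoa4, chr9:46268358-46268607 (+) for Apoa5, chr3:138143419-138143668 (-) for Mttp and chr7:19677942-19678191 (-) for Apoc2.
Apoa1: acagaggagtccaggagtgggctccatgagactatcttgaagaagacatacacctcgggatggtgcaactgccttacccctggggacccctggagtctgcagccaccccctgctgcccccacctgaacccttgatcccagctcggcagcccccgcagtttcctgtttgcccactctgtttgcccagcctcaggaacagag
Apoa4: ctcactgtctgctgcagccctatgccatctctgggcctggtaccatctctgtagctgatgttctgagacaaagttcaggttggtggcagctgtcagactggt
Apoa5: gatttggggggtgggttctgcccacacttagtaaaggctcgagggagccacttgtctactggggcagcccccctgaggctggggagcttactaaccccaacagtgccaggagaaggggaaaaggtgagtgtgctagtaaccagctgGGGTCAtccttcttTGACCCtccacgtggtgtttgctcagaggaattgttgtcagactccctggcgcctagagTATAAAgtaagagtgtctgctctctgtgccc
Mttp: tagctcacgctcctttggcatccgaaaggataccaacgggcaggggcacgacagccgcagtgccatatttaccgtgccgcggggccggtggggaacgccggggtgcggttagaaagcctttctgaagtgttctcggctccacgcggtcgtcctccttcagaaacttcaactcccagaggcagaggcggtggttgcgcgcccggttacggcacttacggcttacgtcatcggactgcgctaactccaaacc
Apoc2: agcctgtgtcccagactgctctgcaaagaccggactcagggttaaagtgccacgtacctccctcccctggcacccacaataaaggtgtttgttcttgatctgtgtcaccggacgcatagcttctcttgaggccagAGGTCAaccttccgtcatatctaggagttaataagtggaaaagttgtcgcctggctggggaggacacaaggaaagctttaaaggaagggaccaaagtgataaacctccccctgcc

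RefSeq windows were matched for 8 of the 10 genes, with no window used for Apoc1 or Apoc3. In the Apoa5 stretch a pair of GGGTCA half-sites in opposite orientation stood 104 and 90 bases before the RefSeq start of that window, and a TATA box 31 bases before it. Apoa5 has another RefSeq window, chr9:46268383-46268632, which ends directly before the gene start of the deposited table. Counted from its RefSeq start, the same half-sites are at -129 and -115 and the TATA box at -56. The Apoc2 stretch held an AGGTCA half-site 115 bases before its start. None of the searched letters was in the 250 bases before the RefSeq start of Apoa1, Apoa4 or Mttp. Among all 32851 windows of 250 bases, 14.0% held AGGTCA, 11.7% GGGTCA, 0.384% CAAAGTCCA and 12.4% TATAAA. None of these motifs overlaps another in the printed stretches, and a match describes letters only.

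Values are FPKM, which adjust for transcript length and for the size of a library, so levels of genes can be set side by side, although short and long transcripts deviated in opposite directions between libraries. The depth of each library is unknown. Together the apolipoproteins and Mttp made up 2.999% to 3.27% of all FPKM in MSC libraries, 3.26% in the Cancer-labelled library and 2.37% to 3.46% in vehicle libraries. Other large shares differed between libraries: mitochondrially encoded genes took 36.4% in MSC replicate 1 and 16.5% to 23.3% in the rest, and genes named Mup with a number took 1.45% in the Cancer-labelled library and up to 16.1% in MSC replicate 2. All 8 hepatocyte markers examined, Alb and Ttr among them, reached 1 FPKM in every library. Of intestinal epithelium, the other tissue that makes many of these proteins, 3 of 5 markers were listed. They summed to 100 to 133 FPKM in MSC libraries, 86.7 in the Cancer-labelled library and 79.5 to 138 in vehicle libraries. Fabp2 was at 64.1 to 122.5 FPKM and Lgals4 at 12.3 to 23.7 FPKM over the libraries, and Vil1 at most 0.912 FPKM. The 5 bile duct markers summed to 31.2 to 144 FPKM in MSC libraries, 511 in the Cancer-labelled library and 47.8 to 165 in vehicle libraries. Most of each sum was Spp1 alone, at 28.65 to 139 FPKM in MSC libraries, 453.5 in the Cancer-labelled library and 45.1 to 158 in vehicle libraries. Red cell markers summed to 105 to 224 FPKM in MSC libraries, 563 in the Cancer-labelled library and 210 to 902.5 in vehicle libraries. Of the 5 red cell markers, 4 had an unadjusted limma p under 0.05 for MSC against vehicle, against 5.59% of all genes tested. None of these markers passed after adjustment (limma, lowest adjusted p = 0.626). Their part in the apolipoprotein values was not tested. Of 4 markers of tumour and fetal liver, Afp was at 0.468 and Gpc3 at 0.761 FPKM in the Cancer-labelled library, Igf2 was listed at 0, and H19 was at 11.9 FPKM, against 0.145 to 3.92 FPKM in vehicle libraries. In whole liver, fewer cells of a type and less RNA per cell cannot be told apart.

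Apoa2 and Apoa1 were the most abundant of the 10 and ranked between 15th and 39th among all genes in every library. Their means over the 7 libraries were 4769 and 3818 FPKM, and Apoa2 was above Apoa1 in 5 of 7 libraries. Apoc1 came next with a mean of 1928 FPKM, below Apoa1 in 7 of 7 libraries and with ranges that did not overlap. Apoa4 (977 FPKM) and Apoc3 (764 FPKM) overlapped, with Apoa4 higher in 5 of 7 libraries. Apob (312 FPKM) and Apoa5 (288 FPKM) could not be ordered: Apob was higher in 3 of 7 libraries. Apoc2 averaged 148 FPKM, and Apom (61.5 FPKM) and Mttp (43.9 FPKM) were the lowest, with Apom higher in 5 of 7 libraries.

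**Figure D1:**
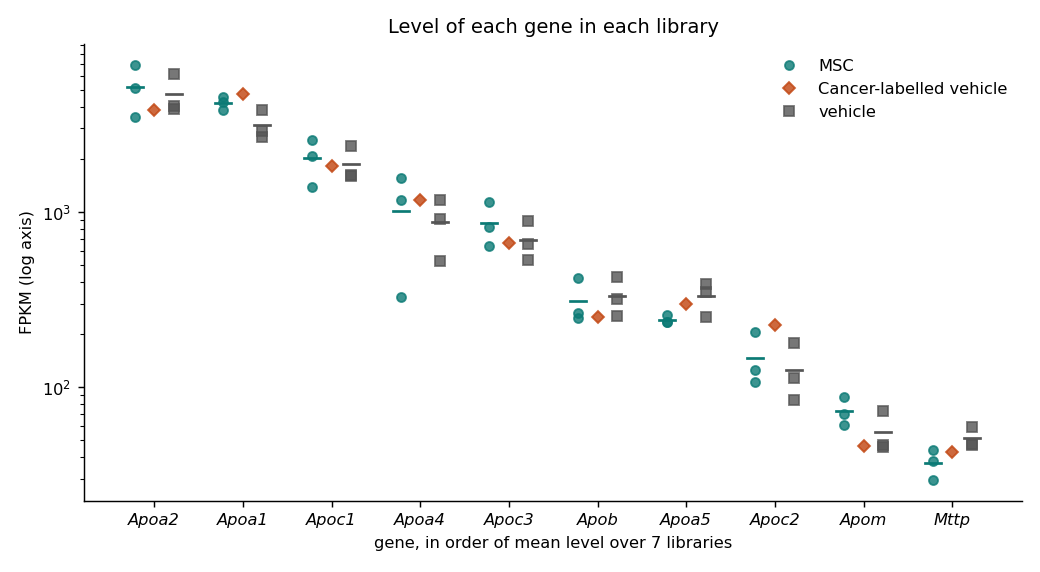
FPKM on a log axis for each gene in each library, with horizontal bars for the mean of the 3 MSC and the 3 vehicle libraries; the Cancer-labelled vehicle is 1 library. MSC and vehicle points intermingle for 9 of the 10 genes, and for Mttp all 3 MSC points lie below all 3 vehicle points.

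None of the 10 genes passed the test of MSC against vehicle livers. Over 10534 genes, limma on log2(FPKM + 1) called 2 (0.019%) at a Benjamini-Hochberg adjusted p under 0.05, 1 higher (0.00949%) and 1 lower (0.00949%). Among the 10 the lowest adjusted p was 0.909. At an unadjusted p under 0.05 limma called 0 of the 10, against 5.59% of all genes tested (1.45% higher and 4.14% lower). Without the mean-variance trend in limma, Mttp (unadjusted p = 0.0451) and Apoa1 (unadjusted p = 0.0459) were under 0.05, each with an adjusted p of 0.863. Of the 10 differences 7 were positive and 3 negative, with a median of 0.11 on the log2 scale, against 39.9% positive, 60.1% negative and a median of -0.05 over all genes. The 2 genes called, Gm20716 (higher) and Mup-ps18 (lower), are not apolipoproteins and are named after their values were seen.

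Mttp was the only one of the 10 whose MSC and vehicle libraries did not overlap. It had 43.8, 29.5 and 37.7 FPKM in MSC livers, 42.5 in the Cancer-labelled liver, and 59.3, 46.7 and 47.4 FPKM in vehicle livers. Every MSC library was below every vehicle library, a pattern seen in 7.84% of all genes tested. None of the 10 had every MSC library above every vehicle library, against 2.17% of all genes. The mean was 37.0 ± 7.17 FPKM in MSC and 51.1 ± 7.09 FPKM in vehicle livers (SD, n = 3 each), and the log2 difference of -0.47 ± 0.21 (SE) did not pass (limma adjusted p = 0.909; unadjusted p = 0.0544). Apob, the protein that Mttp loads, had 419, 248 and 265 FPKM in MSC livers, 252 in the Cancer-labelled liver and 425, 255 and 320 FPKM in vehicle livers. These groups overlapped almost fully, and the log2 difference was -0.11 ± 0.31 (SE; limma adjusted p = 0.995).

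The ratio of Mttp to Apob does not depend on how a library is scaled as a whole. The transcripts differ in length, 3963 bases for Mttp and 13934 for Apob (longest protein-coding transcript in GENCODE M21). The GENCODE coordinates of Mttp differ from those of the deposited table. Short and long transcripts deviated in opposite directions between libraries, and the part of this in the ratio was not tested. The ratio was 0.105, 0.119 and 0.142 in MSC livers, 0.169 in the Cancer-labelled liver and 0.140, 0.183 and 0.148 in vehicle livers. The groups overlapped by 1 pair of libraries, and the mean log2 ratio differed by -0.37 (exact two-sided permutation p = 0.2, adjusted p = 0.6 over 3 ratios). With 3 against 3 libraries that test cannot give a p below 0.1.

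Apoa1, the main protein of high density lipoprotein, had 3820.4, 4246 and 4557 FPKM in MSC livers, 4705 in the Cancer-labelled liver, and 2899.6, 3824 and 2674 FPKM in vehicle livers. A single pair kept the MSC and vehicle groups from separating: vehicle replicate 3 lay just above MSC replicate 0. The means were 4208 ± 369.8 FPKM in MSC and 3132 ± 609.5 FPKM in vehicle livers (SD, n = 3 each), a ratio of 1.34, and the log2 difference of 0.44 ± 0.36 (SE) did not pass (limma adjusted p = 0.995). Apoa2, its partner on the same particle, had 3473, 6925 and 5109 FPKM in MSC livers, 3812 in the Cancer-labelled liver, and 4039, 6171 and 3856 FPKM in vehicle livers. The spread within each group was wider than the gap between their means (log2 difference 0.12 ± 0.44, SE; limma adjusted p = 0.998). The ratio of Apoa2 to Apoa1 was 0.909, 1.63 and 1.12 in MSC livers, 0.810 in the Cancer-labelled liver and 1.39, 1.61 and 1.44 in vehicle livers (mean log2 difference -0.32 between MSC and vehicle; exact two-sided permutation p = 0.4, adjusted p = 0.6). That difference was -0.13 without MSC replicate 0 and -0.55 without MSC replicate 1.

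Apom, which carries sphingosine 1-phosphate on high density lipoprotein, had 70.5, 60.7 and 87.5 FPKM in MSC livers, 46.2 in the Cancer-labelled liver, and 47.0, 45.8 and 72.6 FPKM in vehicle livers. Vehicle replicates 1 and 3 were below every MSC library, and vehicle replicate 4 was within the MSC range (log2 difference 0.41 ± 0.24, SE; limma adjusted p = 0.995). Apoa4, a lipid-binding apolipoprotein made in liver and intestine, was the most variable. It had 1562, 1163 and 328 FPKM in MSC livers, 1170.0 in the Cancer-labelled liver, and 1171, 917.5 and 526 FPKM in vehicle livers. The highest and the lowest of the 7 values, 4.77-fold apart, were both in the MSC group, and the log2 difference was 0.03 ± 0.59 (SE; limma adjusted p = 0.999). Its neighbour Apoa1, 10.2 kb away, spanned 1.76-fold over the same libraries.

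Apoa5, a promoter of lipolysis that is present in plasma at low amounts, was the gene with the narrowest MSC spread. It had 234, 259 and 235 FPKM in MSC livers, 298 in the Cancer-labelled liver, and 253, 389.7 and 347 FPKM in vehicle livers. Its coefficient of variation was 5.70% among MSC libraries and 21.3% among vehicle libraries, and the groups overlapped through vehicle replicate 1. The log2 difference of -0.42 ± 0.25 (SE) did not pass (limma adjusted p = 0.995). Across the other 9 genes the coefficient of variation ran from 8.79% for Apoa1 to 61.9% for Apoa4 among MSC libraries, and from 13.9% for Mttp to 38.3% for Apoc2 among vehicle libraries.

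Apoc2, the cofactor of lipoprotein lipase, had 125, 207 and 107 FPKM in MSC livers, 225 in the Cancer-labelled liver, and 178, 112 and 84.4 FPKM in vehicle livers. Apoc3, which restrains the lipase, had 643, 1135 and 823 FPKM in MSC livers, 667 in the Cancer-labelled liver, and 535, 890.4 and 655 FPKM in vehicle livers. Apoc1 had 1393, 2574 and 2099.7 FPKM in MSC livers, 1824 in the Cancer-labelled liver, and 1599.5, 2388 and 1618 FPKM in vehicle livers. All 3 overlapped between MSC and vehicle livers, with log2 differences of 0.24 ± 0.34 for Apoc2, 0.31 ± 0.33 for Apoc3 and 0.10 ± 0.37 for Apoc1 (SE; limma adjusted p from 0.995 to 0.998). The ratio of Apoc3 to Apoc2 was 5.14, 5.48 and 7.72 in MSC livers, 2.97 in the Cancer-labelled liver, and 3.01, 7.93 and 7.77 in vehicle livers. The Cancer-labelled library and vehicle replicate 1 were the lowest (mean log2 difference between MSC and vehicle 0.08; exact two-sided permutation p = 1, adjusted p = 1).

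Reads of Apoc2 may be shared. A predicted protein-coding gene model, Gm44805, overlaps 6358 bases of Apoc2 on the same strand and had a mean of 147 FPKM over the 7 libraries. Apoc2, Apoc4 and Gm44805 summed to 388, 567.5 and 338.5 FPKM in MSC livers, 460.3 in the Cancer-labelled liver, and 383, 409 and 302 FPKM in vehicle livers. In this sum the highest library was MSC replicate 1, whereas for Apoc2 alone it was the Cancer-labelled library. The change of order did not need Gm44805. Apoc2 plus Apoc4, for which no overlap was found, already placed MSC replicate 1 (392.6 FPKM) above the Cancer-labelled library (315.3 FPKM). FPKM is scaled by transcript length, so such sums do not count shared reads, and the effect of sharing on Apoc2 was not tested. Antisense or tentative models overlap Apoa4, Apoa5 and Mttp, and those of Apoa4 and Mttp that the table lists averaged 2.44 FPKM at most.

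**Figure D2:**
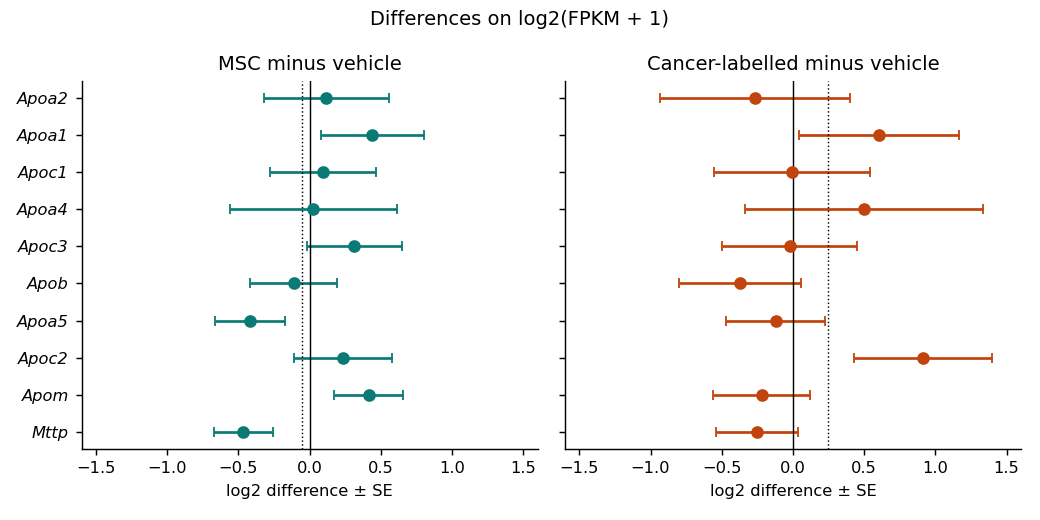
Log2 differences on log2(FPKM + 1) with standard errors from limma, for MSC minus vehicle (left) and Cancer-labelled minus vehicle (right); the solid line is 0 and the dotted line the median of all genes tested. Mttp and Apoa5 lie left of 0 and Apoa1 and Apom right of it for MSC minus vehicle, and Apoc2 at 0.91 is the farthest right for the Cancer-labelled library.

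For the Cancer-labelled liver against vehicle livers, limma was fitted to 12265 genes with the 7 libraries in 3 groups, and the lone library was taken to vary as the other groups do. None of the 10 genes passed, against 4.17% of all genes (3.98% higher and 0.188% lower). No gene of the 10 had an unadjusted p under 0.05, against 17.2% of all genes (15.4% higher and 1.73% lower). Of the genes tested, 1731 entered only because they reached 1 FPKM in the Cancer-labelled library itself, which raises the shares of higher values. Over the other 10534 genes limma called 17 (0.161%), and 0 of the 10, and the median log2 difference was 0.19 with 73.5% positive, against 0.25 with 77.2% positive and 22.8% negative over all 12265. The 10 genes had a median of -0.07 with 3 positive differences. The library was above every vehicle library for 2 of the 10 (Apoa1 and Apoc2; 56.2% of all genes, 50.3% of the 10534), below every one for 3 (Apoa2, Apob and Mttp; 10.6% of all genes, 12.4% of the 10534) and within the vehicle range for 5. Apoc2 had the largest difference, 0.91 ± 0.48 (SE; limma adjusted p = 0.382), at 225 FPKM against a vehicle mean of 125 ± 47.8 FPKM (SD, n = 3). Apoa1 followed with 0.60 ± 0.56 (SE; limma adjusted p = 0.623), and without the trend its unadjusted p was 0.0484 and its adjusted p 0.299 in limma. Centring each library on its median put the median of all genes at -0.06, Apoc2 at 0.60, Apoa1 at 0.29 and Apoa4 at 0.19, against 0.91, 0.60 and 0.50 without centring. The bile duct markers Epcam and Krt19 were at 21.6 and 24.4 FPKM in the same library, against 2.45 ± 1.48 and 0.989 ± 0.120 FPKM in vehicle libraries (SD, n = 3). Of the 5 bile duct markers 4 passed as higher in limma, 3 of them admitted only through this library; over the 10534 genes 2 of the 5 were tested and 0 passed (Epcam adjusted p = 0.0603). Their part in the apolipoprotein values was not tested.

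The 3 shortest transcripts of the 10 and the longest one were highest in different libraries. Apoa2 (518 bases, the longest protein-coding transcript in GENCODE M21), Apoc1 (532 bases) and Apoc3 (709 bases) each had their 3 highest values in MSC replicate 1, vehicle replicate 3 and MSC replicate 2. Apob (13934 bases) had its 3 highest values in vehicle replicate 1, MSC replicate 0 and vehicle replicate 4. Relative to the mean of the 7 libraries on the log2 scale, Apoa2 was at 0.58 in MSC replicate 1 and -0.41 in MSC replicate 0, and at 0.42 in vehicle replicate 3 and -0.26 in vehicle replicate 4. Apob was at -0.29 in MSC replicate 1 and 0.46 in MSC replicate 0, and at -0.25 in vehicle replicate 3 and 0.07 in vehicle replicate 4. Apoc2 (727 bases) did not share the order: its highest values were in the Cancer-labelled library, MSC replicate 1 and vehicle replicate 1.

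The same order was present over all genes with a mean of at least 1 FPKM. The median deviation of 599 genes with transcripts under 1 kb, minus that of 415 genes with transcripts of 8 kb and over, was -0.26, 0.45 and 0.18 in MSC replicates 0, 1 and 2, -0.08 in the Cancer-labelled library, and -0.32, 0.32 and -0.31 in vehicle replicates 1, 3 and 4 (log2). Both groups held libraries on either side of 0. The median log2 difference between MSC and vehicle livers was 0.11 for transcripts under 1 kb, -0.06 for those of 2 to 4 kb, the class that holds Mttp (3963 bases), and -0.11 for those of 8 kb and over. The length of Mttp lies just under the 4 kb edge, and its GENCODE M21 coordinates differ from those of the deposited table, so its class is uncertain. The class of 4 to 8 kb had a median of -0.09. With libraries centred within length classes, an alternative chosen after seeing this, the difference of Mttp was -0.41 ± 0.16 (SE; limma adjusted p = 0.633, unadjusted p = 0.0334), that of Apoa1 0.44 and that of Apob 0.02, on the other side of 0. The part of RNA quality or library preparation in these values was not tested.

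**Figure D3:**
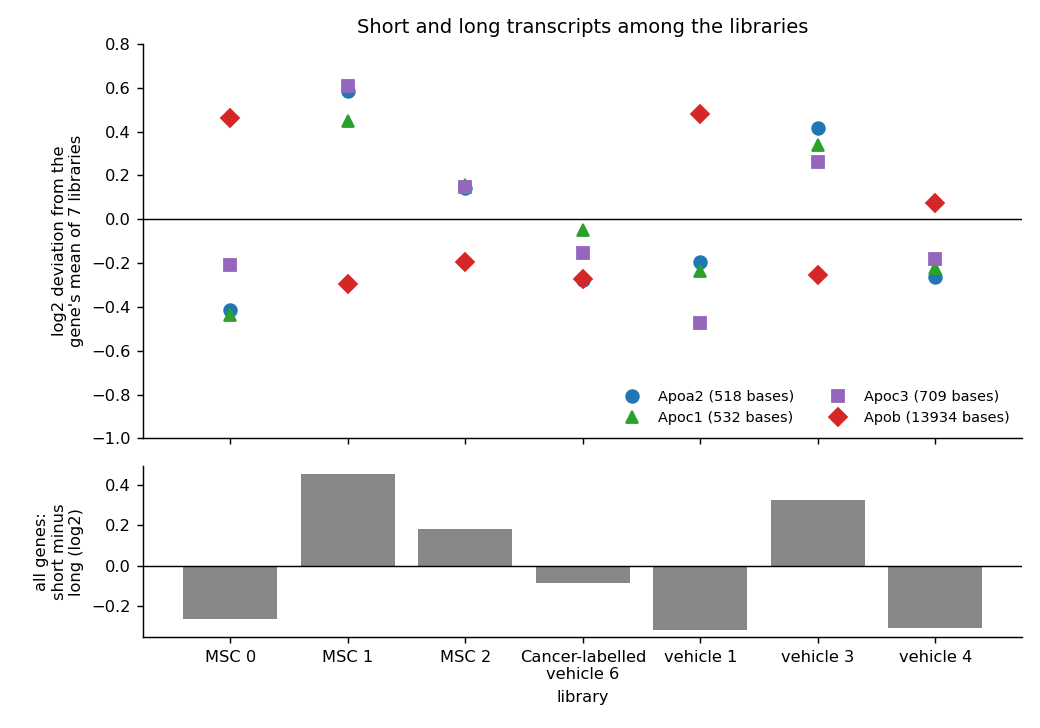
Upper panel: deviation of Apoa2, Apoc1, Apoc3 and Apob in each library from the mean of the gene over 7 libraries, on log2(FPKM + 1). Lower panel: median deviation of all genes with transcripts under 1 kb minus that of genes of 8 kb and over. Apoa2, Apoc1 and Apoc3 are above 0 in MSC replicates 1 and 2 and vehicle replicate 3, where the bars are positive, and Apob is below 0 there.

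Genes around the 10 were read from 5 lists of the same pathway. Over all genes tested for MSC minus vehicle, 60.1% of differences were negative and the median log2 difference was -0.05. In the same fit 5.59% of genes had an unadjusted p under 0.05 (limma). Of 13 genes of particle assembly and export, 8 had a positive and 5 a negative difference between MSC and vehicle livers (median log2 0.01), and 0 passed in limma (0 at an unadjusted p under 0.05). Soat2, which esterifies cholesterol for packing, had 14.9 ± 4.48 FPKM in MSC and 10.03 ± 1.365 FPKM in vehicle livers, and Mia2, an export receptor of the endoplasmic reticulum, 20.9 ± 4.75 and 26.5 ± 5.90 FPKM (SD, n = 3 each). Among other proteins carried on lipoproteins, 9 of 11 tested were negative (median log2 -0.21) and 0 passed in limma (0 at an unadjusted p under 0.05). Saa1 and Saa2, acute phase proteins of high density lipoprotein, were dominated by vehicle replicate 4, with Saa1 at 190.0, 41.3 and 383 FPKM in MSC livers, 59.7 in the Cancer-labelled liver and 137, 351 and 3356 FPKM in vehicle livers. Saa2 was at 81.1, 18.9 and 182 FPKM in MSC livers, 29.95 in the Cancer-labelled liver and 57.5, 205 and 3112 FPKM in vehicle livers.

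Lipases and plasma remodelling genes were negative in 9 of 12 cases (median log2 -0.15) and 0 passed in limma (0 at an unadjusted p under 0.05). Pltp, the phospholipid transfer protein, had 8.95 ± 2.26 FPKM in MSC and 12.6 ± 5.07 FPKM in vehicle livers, and Lipg, endothelial lipase, 2.395 ± 1.24 and 3.38 ± 2.22 FPKM (SD, n = 3 each). Of 9 receptor genes tested, 6 were negative (median log2 -0.05) and 0 passed in limma (1 at an unadjusted p under 0.05). Sdc1, a proteoglycan that takes up remnant particles, had 44.4 ± 10.8 FPKM in MSC and 68.8 ± 25.6 FPKM in vehicle livers (SD, n = 3 each).

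Transcription factors known to act on these genes were negative in 11 of 15 cases (median log2 -0.11) and 0 passed in limma (1 at an unadjusted p under 0.05). Hnf4a, the nuclear receptor that drives many apolipoprotein genes and Mttp, had 102, 76.9 and 109 FPKM in MSC livers, 91.0 in the Cancer-labelled liver and 123, 122 and 121.0 FPKM in vehicle livers; it is named after its values were seen. All MSC libraries were below all vehicle libraries, as for 2 of the 16 listed factors and 7.84% of all genes, and the log2 difference of -0.36 ± 0.21 (SE) did not pass (limma adjusted p = 0.995, unadjusted p = 0.119). Nr0b2, a corepressor induced by bile acids, had 7.67 ± 2.71 FPKM in MSC and 4.07 ± 2.82 FPKM in vehicle livers (SD, n = 3 each), and 15.25 FPKM in the Cancer-labelled liver. For the Cancer-labelled library against vehicle, log2 differences in these 5 lists ran from -3.43 for Saa2 to 2.12 for Lpl. A single library stands for that group, so its own spread is unknown. Lpl, lipoprotein lipase itself, was at 20.2 FPKM in that library against 3.92 ± 0.871 FPKM in vehicle livers (SD, n = 3). In MSC livers Lpl had 7.33, 3.24 and 1.29 FPKM. That library was above every vehicle library for 56.2% of all genes, and for 50.3% of the 10534 that entered without it. Lpl is named after its values were seen, so its difference is given as a size only. In this comparison the list medians ran from -0.36 for other carried proteins to 0.28 for receptors.

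**Figure D4:**
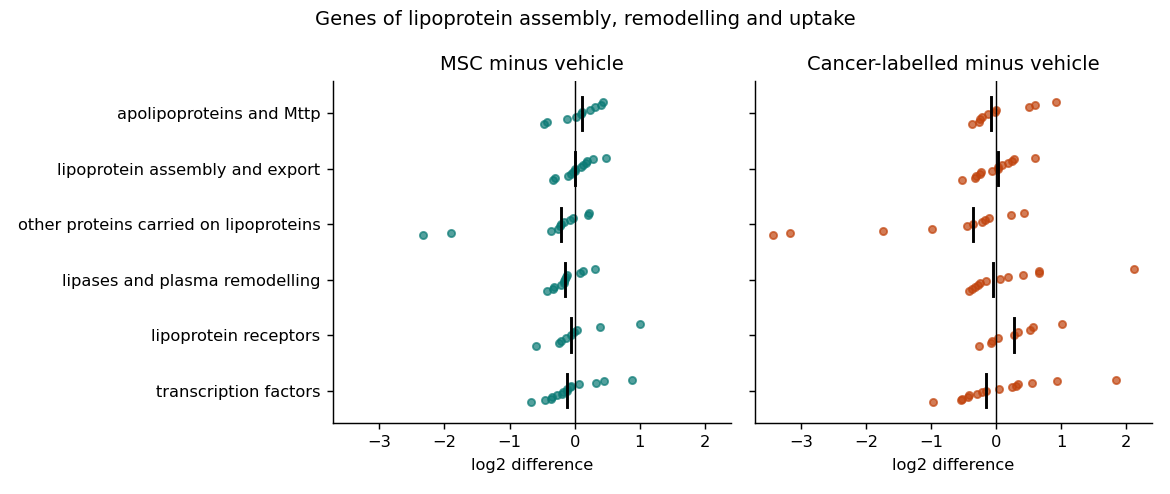
Log2 difference of each tested gene (points) and the median of each list (black bar) for MSC minus vehicle (left) and Cancer-labelled minus vehicle (right). In both panels Saa2 (-2.32 and -3.43) and Saa1 (-1.90 and -3.17) lie farthest to the left, and Lpl (2.12) is farthest to the right for Cancer-labelled minus vehicle.

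Apoa4 and Apoc2 varied most over the 7 libraries, with SDs of 0.79 and 0.53 on the log2 scale. Of 2789 other genes with a mean of at least 10 FPKM, those with the nearest profile to Apoa4 were Idh2, Tubb2a and Ifi27l2b, at root-mean-square distances of 0.28, 0.29 and 0.33 (log2, 7 libraries). Idh2, mitochondrial isocitrate dehydrogenase, had 47.2, 44.4 and 18.9 FPKM in MSC livers, 55.9 in the Cancer-labelled liver and 50.9, 44.2 and 21.5 FPKM in vehicle livers. For Apoc2 they were Hmgcs1, H2-Q4 and Rras, at 0.16, 0.16 and 0.18. Hmgcs1, an enzyme of cholesterol synthesis, had 14.4, 19.4 and 11.4 FPKM in MSC livers, 22.1 in the Cancer-labelled liver and 23.8, 11.7 and 9.62 FPKM in vehicle livers. In both genes, as in Apoa4 and Apoc2, MSC replicate 2 and vehicle replicate 4 held the lowest value of their group. Both were picked for likeness over these same libraries, so the shared order follows largely from the choice and is not a separate result.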

How the data were processed

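RNA was measured in 7 mouse liver libraries. The authors deposited FPKM per gene and library, per the file headers. StringTie 2.1.6, HISAT2 2.2.1, FastQC 0.11.9 and cutadapt 1.9 are named in the submitters' processing notes without a role, as are builds mm10 and GRCm38. How strand was handled is not given there. Abundant transcripts lower the FPKM of all others, and depth is unknown.

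Values were analysed as log2(FPKM + 1), which understates changes of low genes. For MSC minus vehicle a gene had to reach 1 FPKM in 3 of the MSC and vehicle libraries. For Cancer-labelled minus vehicle it had to do so in 3 of all libraries, or in the Cancer-labelled one. Genes were tested with limma 3.58.1 in R 4.3.3 (lmFit, eBayes with trend), adjusted by Benjamini-Hochberg over all genes tested. The steps were tested on simulated data. Ratios were tested by exact permutation. Of the gene identifiers, 99.75% matched GENCODE M21, which gave transcript lengths for 88.8% of genes with a mean of at least 1 FPKM; length classes were split at 1, 2, 4 and 8 kb. Promoter sequences were from RefSeq (GRCm38.p6). Figures used matplotlib 3.10.9.

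The members and lists were chosen with earlier results of these data known. The rule for named genes took all 10 members and, from each list without a call, the 2 genes with the largest MSC minus vehicle difference. For the 2 most variable members it took the 3 genes nearest in profile. Results for a few of these genes were left out. Alternatives covered pseudocount, filter, scaling, moderation in limma, counting the Cancer-labelled liver as vehicle, and each library left out.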

Additional observations from a re-analysis of the deposited data

How the results depend on the processing

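The count of apolipoprotein genes called was 0 in both comparisons under every alternative, and Apoa1, Apoa5, Apoc3, Apom and Mttp kept the sign of their MSC minus vehicle difference in the 15 that could move it. Their log2 differences ranged from 0.29 to 0.59, -0.60 to -0.24, 0.10 to 0.56, 0.28 to 0.63 and -0.59 to -0.32 in that order. Signs turned elsewhere, from reported MSC minus vehicle differences as large as 0.24 (Apoc2), and the cause was not tested. For MSC minus vehicle, Apoa4 was at -0.079 as TPM, -0.17 when MSC 0 and vehicle 1 were both left out, and -0.10 when the Cancer-labelled liver was counted as vehicle. Apoc1 was at -0.0088 as TPM and -0.0725 after quantile normalization, and Apob at 0.0451 after quantile normalization and 0.0169 with centring within length classes. Leaving out 1 library gave -0.12 to 0.38 for Apoa2, -0.42 to 0.70 for Apoa4, -0.35 to 0.0803 for Apob, -0.10 to 0.34 for Apoc1 and -0.0417 to 0.52 for Apoc2. For Cancer-labelled minus vehicle, Apoc1 was at 0.0509 as TPM and 0.30 after quantile normalization, Apoc3 at 0.0361 and 0.48 in the same order, and Apoa5 at 0.24 after quantile normalization. Leaving out 1 library gave -0.30 to 0.0098 for Apoa5, -0.11 to 0.18 for Apoc1 and -0.19 to 0.17 for Apoc3, each highest without vehicle replicate 3. The log2 difference in the ratio of Apoc3 to Apoc2 ranged from -0.38 without vehicle replicate 1 to 0.31 without vehicle replicate 3. Over all genes, MSC minus vehicle calls numbered 1 to 8 with 1 library left out (8 without vehicle replicate 1), 1 when MSC 0 and vehicle 1 were both left out, 1 when the Cancer-labelled liver was counted as vehicle, and 0 with centring within length classes, which tests fewer genes. Cancer-labelled minus vehicle calls, 511 as reported, numbered 13 with a pseudocount of 0.1, 838 with a pseudocount of 5, 1035 with no filter, 316 as TPM, 17 with the filter read from the other 6 libraries (added after seeing the data), 110 without mitochondrial and Mup genes, 1032 with MSC 0 and vehicle 1 both left out, and 267 to 631 with 1 library left out. No paired analysis was made, because the labels name no pairing of MSC with vehicle libraries.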
